A study of Mus musculus with 32 samples.

Results

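Microglia that carried transcripts of the chemokines Ccl3 and Ccl4 were 50 of the 5982 cells (0.836%) profiled from the median eminence (ME), a hypothalamic region beside the third ventricle whose vessels let blood-borne signals through. The cells were chosen by their own unique molecular identifiers (UMIs, which count transcript molecules). A cell counted as a microglial cell when it held at least 5 UMIs of C1qc, a complement subunit gene, and at least 2 UMIs over P2ry12, Cx3cr1 and Gpr34, and more of these than of the macrophage genes Mrc1, Pf4, F13a1, Ms4a7 and Cd163. Of the 410 cells that passed, 50 held at least 2 UMIs of Ccl3 and Ccl4 together and are called members below. The other 360, with 0 or 1 such UMI, are the compared microglia.

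Single-cell RNA-seq had been run on male C57BL/6j mice aged 40 to 47 days, in 2 conditions. The fasted mice went without food for 16 h, and the refed mice were given food again for 1 h after a fast of 16 h. The ME of 5 mice was pooled in each condition and run as 2 libraries, after dissociation with papain at 37 °C and sorting of stained live cells, on the 10x Genomics 3' platform. All cells stand in 1 matrix of 27998 genes, in which each barcode ends in a number from 1 to 4 that the labels do not tie to a condition. Fasted and refed cells were therefore not compared, the matrix was treated as 1 sample, and no statistical test was made. The values given for each barcode number are descriptions of 4 parts of that sample. Intervals are exact 95% limits, Poisson for levels and Clopper-Pearson for shares, and cover counting error only, and the UMIs within a cell come from a shared draw.

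Microglia are the resident immune cells of brain tissue. They survey it through receptors such as P2ry12 and Cx3cr1, and on stimulation by injury, bacterial products or nucleotides they release chemokines and interleukin-1. Ccl3 and Ccl4 (macrophage inflammatory proteins 1 alpha and 1 beta) are small secreted proteins that draw in leukocytes. Their transcription, like that of Il1a, Junb and Atf3, can rise within the hour, through kinases that reach AP-1 and NF-kB factors already present in the cell. AP-1 factors are dimers of Fos, Jun and Atf proteins, and many of their genes are themselves among the first to respond.

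Both chemokine genes lie on chromosome 11 of GRCm38, Ccl3 at chr11:83647844-83649355 on the minus strand and Ccl4 at chr11:83662584-83664683 on the plus strand. The stretches of 250 bases before the start sites of Ccl3 and Il1a (RefSeq, GRCm38.p6) are shown because both encode secreted signals among the markers named for these cells. Capitals mark a match to the AP-1 motif TGANTCA. Each line is written 5′ to 3′ on the strand of the gene, which is the minus strand for both.
Ccl3, chr11:83649379-83649628: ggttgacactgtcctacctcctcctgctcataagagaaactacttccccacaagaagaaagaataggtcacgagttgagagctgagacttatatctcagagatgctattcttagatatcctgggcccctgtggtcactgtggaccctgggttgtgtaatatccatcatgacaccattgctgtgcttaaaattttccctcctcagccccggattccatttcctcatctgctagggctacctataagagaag
Il1a, chr2:129309973-129310222: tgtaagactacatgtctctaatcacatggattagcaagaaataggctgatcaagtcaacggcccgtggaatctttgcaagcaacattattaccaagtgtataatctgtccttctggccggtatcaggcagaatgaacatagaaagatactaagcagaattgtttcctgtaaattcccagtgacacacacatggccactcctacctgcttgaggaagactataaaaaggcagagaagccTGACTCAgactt
The match of Il1a, an interleukin-1 gene, lay 6 to 12 bases before the start site and reads as the motif on either strand. Of the 32851 promoter windows of the same length in the table, 6.75% held the AP-1 motif. No further match was found in these windows or in that of Junb for AP-1, for the cyclic AMP response element TGACGTCA (1.55% of all windows), for the NF-kB motif (7.25%) or for the CArG box (1.47%), each searched on both strands. Ccl4 was not in the table. A match describes letters in a window only.

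Members made up 12.2% of the microglia (9.19 to 15.8%). By barcode number they were 14 of 125 microglia in number 1 (11.2%, 6.26 to 18.1%), 24 of 143 in number 2 (16.8%, 11.1 to 23.9%), 7 of 63 in number 3 (11.1%, 4.59 to 21.6%) and 5 of 79 in number 4 (6.33%, 2.09 to 14.2%). The intervals of all 4 overlap, and number 2 held 48.0% of the members. Members were more deeply read than the compared microglia, with a median of 3781 against 3016 UMIs and 1572 against 1446 genes per cell. Once each microglial cell was thinned to 1000 UMIs, 25 cells (6.10%, 3.98 to 8.87%) still held 2 or more UMIs of the chemokines, so the share is set in part by depth. Mitochondrial transcripts took 2.05% of UMIs in members and 1.73% in the compared microglia. Of the barcode sequences, 21 occurred under more than 1 number, in 5 compared cells and 0 members.

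Genes that the rule did not use also marked the members as microglia. Csf1r, the receptor that keeps microglia alive, was found in 100% of them at 2633 CPM (2418 to 2861), where CPM is the UMIs of the gene for each 1e+06 UMIs of the summed cells. Selplg, a ligand of selectins that microglia carry, was found in 96.0% of them. Of the 11 macrophage markers, 4 (F13a1, Cd163, Cbr2 and Clec10a) were at 0, and the list summed to 171 CPM in members against 191 in the compared microglia. The rule itself held down F13a1 and Cd163, along with Mrc1, Pf4 and Ms4a7. For these genes the low level describes the choice of cells. The list ranged from 48.3 to 262 CPM over the barcode numbers in members and from 123 to 215 in the compared cells. Markers of neutrophils and monocytes summed to 90.3 against 179 CPM, with Ly6c2, S100a8, S100a9, Chil3, Hp and Retnlg at 0 in members. A cell-by-cell count of 5 or more UMIs from markers of other cell types was met by 52.0% of members and 50.3% of compared microglia.

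The chemokine UMIs chose the members, so their levels are a description. Ccl4 stood at 1559 CPM in members (1394 to 1737) and 8.39 in the compared microglia (4.02 to 15.4). Ccl3 stood at 703 CPM (595 to 826) and 11.8 (6.42 to 19.7). By barcode number, Ccl4 in members was at 1490, 1273, 1956 and 2559 CPM for numbers 1 to 4, and Ccl3 at 917, 576, 405 and 1110 CPM. Members held 59.3% of all Ccl4 UMIs of the matrix and 47.9% of all Ccl3 UMIs.

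The members differed widely in how many chemokine UMIs they held. The lowest value was 2 UMIs, the median 5 and the highest 57, and the 8 members above 20 UMIs held 60.1% of the chemokine UMIs. Just inside the threshold stood 14 members with 2 UMIs, and just outside it 24 compared cells with 1, while 336 compared cells had 0. Ccl3 and Ccl4 were both present in 25 members, Ccl4 alone in 15 and Ccl3 alone in 10. Over the 50 members the rank correlation of the UMIs of both genes was 0.0646, a value shaped by the rule, which asked for their sum. Of the 8 richest cells, 7 held both genes, as the plot of Ccl3 against Ccl4 shows, and the eighth held 48 UMIs of Ccl4 with 0 of Ccl3.

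**Figure D1:**
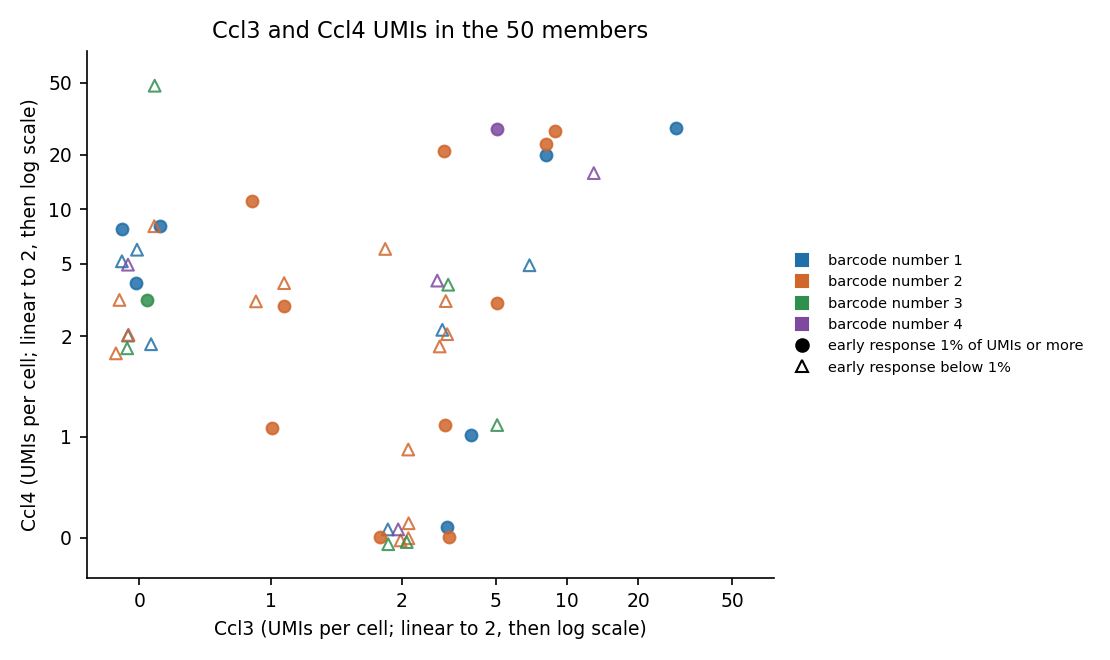
UMIs of Ccl3 (x axis) and Ccl4 (y axis) in each of the 50 members, both axes linear to 2 and logarithmic above, with a small random shift so that cells do not hide each other. Colour gives the barcode number, and filled circles mark the 19 members in which early response genes took 1% of UMIs or more; 6 of the 8 cells above 20 chemokine UMIs are such circles.

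Outside the microglia, the chemokines were found in macrophages (cells of the same C1qc rule with more macrophage than microglial genes). Of 108 macrophages, 17 (15.7%, 9.45 to 24.0%) held 2 or more UMIs of Ccl3 and Ccl4, at 331 CPM for Ccl3 and 470 CPM for Ccl4 over all macrophages, with a median depth of 2879 UMIs. The share of cells with 2 or more UMIs was thus 12.2% in microglia and 15.7% in macrophages, with overlapping intervals. Other cell types were taken only from cells with 0 UMIs of C1qa, C1qb and C1qc and at least 5 UMIs of their own markers. Among 1118 astrocytes, 591 tanycytes, 517 oligodendrocytes, 239 neurons, 224 vascular and leptomeningeal cells (VLMCs) and 67 endothelial cells, 0 cells held 2 UMIs. The exact upper limit of that share was 0.329% in astrocytes and 5.36% in endothelial cells. Cells that fitted none of the groups were not counted, so these shares are shaped by the choice of cells. A single UMI was found in at most 1.67% of the cells of these types, in the neurons at a median depth of 6859 UMIs, against 6.67% of all compared microglia.

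The transcripts of members and compared microglia were set against each other as sums over cells, with the 11 rule genes left out. A gene was compared when both groups together held at least 50 UMIs, and was called past the fold when the ratio of CPM plus 10 was at least 2 or at most 0.5, a log2 ratio of 1 or -1. Of 3858 genes, 54 were higher past the fold in members, which is 1.40% of genes, and 121 were lower, which is 3.14%, and the median log2 ratio of all genes was -0.10. Of the 121 lower genes, 102 had fewer than 10 UMIs in members, so the lower calls rest mainly on small counts. Of the 54 higher genes, 15 belonged to the early response transcription factors or their feedback regulators, and 19 were higher in members in all 4 barcode numbers.

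Early response transcription factors were higher in members as a list. Of its 21 genes, 10 had enough UMIs, 8 were higher past the fold, 0 were lower, and the median log2 ratio was 1.64, beside -0.10 over all genes. Over the barcode numbers the median was 1.74, 1.54, 1.15 and 0.86 for numbers 1 to 4, and with all cells thinned to 1000 UMIs it was 1.80. With the compared cells weighted to the barcode numbers of the members it was 1.50. Summed over the list, members held 10259 CPM and the compared microglia 3528 CPM, with 11970, 11807, 4349 and 6277 CPM in members and 3712, 4282, 2118 and 3106 CPM in the compared cells of numbers 1 to 4.

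Junb, an AP-1 subunit and one of the markers named for these cells, stood at 2623 CPM (2409 to 2851) in members and 834 CPM (783 to 888) in the compared microglia. In numbers 1 to 4 members held 3209, 2879, 1011 and 1980 CPM of Junb, and the compared cells 936, 1090, 423 and 572 CPM, so that members were higher in each number though the lowest value of members lay below the highest of compared cells. A UMI of Junb was found in 88.0% of members (75.7 to 95.5%) and 55.0% of compared cells (49.7 to 60.2%), and after thinning in 62.0% and 29.7%. Jun, a subunit that pairs with Fos, was at 2153 CPM (1959 to 2360) against 687 CPM (640 to 735). Fos was at 1497 CPM (1336 to 1672) against 448 CPM (411 to 488), and both were higher in members of every barcode number. Atf3, a stress-responsive member of the same dimer family and a named marker, was at 190 CPM (136 to 259) against 43.6 CPM (32.6 to 57.2). Its CPM in members was 246, 222, 101 and 0 in numbers 1 to 4, and 14 of the 50 members held a UMI of it, so that number 4 went the other way.

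The other early response genes split by size. Egr1, a zinc finger factor induced by growth factor and calcium signals, had the largest log2 ratio of the list, 2.06, at 304 against 65.5 CPM. In number 4 Egr1 went the other way, at 48.3 CPM in members against 99.6 CPM in compared cells. Ier2 reached 931 against 292 CPM and Ier5 632 against 287 CPM. Klf2, a zinc finger factor also known for restraining inflammation, was at 737 against 257 CPM but was higher in members of only 2 of the 4 numbers, with 1131 CPM in number 2 and 67.4 CPM in number 3. Jund, whose transcript is less inducible than that of Junb, had a log2 ratio of 0.77, which is short of the fold.

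The feedback regulators of the response followed in smaller steps. Of 22 listed genes 15 were compared, 7 were higher past the fold, 0 were lower, and the median log2 ratio was 0.53. Btg2, an antiproliferative gene, was at 1088 CPM (952 to 1239) against 414 CPM (378 to 452) and was higher in members of all 4 numbers, as was Socs3, an inhibitor of cytokine receptor signals, at 394 CPM (314 to 489) against 127 CPM (107 to 149). Dusp1, a phosphatase of MAP kinases, was at 432 against 157 CPM, with 491 and 596 CPM in members of numbers 1 and 2 but 0 and 96.6 CPM in those of numbers 3 and 4. Zfp36 (tristetraprolin), which destabilises cytokine mRNAs, was at 318 against 126 CPM. Rgs1, Ppp1r15a and Id2 completed the genes past the fold, with log2 ratios of 1.68, 1.43 and 1.23. Id2 was higher in members of all 4 numbers, Zfp36 and Rgs1 in those of 3 and Ppp1r15a in those of 2.

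Among 18 cytokine genes 5 were compared and 2 were past the fold, both of them interleukin-1 genes, while the list median was -0.11. Il1a, a named marker, was at 257 CPM (193 to 335) in members and 83.1 CPM (67.5 to 101) in the compared microglia. Its CPM in members was 295, 323, 33.7 and 145 for numbers 1 to 4, against 84.6, 110, 42.8 and 69.3 in the compared cells, so that the order turned in number 3, where 1 UMI was found. A UMI of Il1a was seen in 38.0% of members and 19.2% of compared cells, and after thinning in 6 members and 25 compared cells. Il1b was at 128 CPM (84.5 to 187) against 24.3 CPM (16.3 to 35.0), from 27 UMIs in 11 members. Tnf had too few UMIs to be compared, with 16 in 6 members and 6 in 6 compared cells. Tgfb1, an anti-inflammatory cytokine gene, was at 390 against 421 CPM. Of the chemokine ligands outside the rule 6 were compared, with 2 higher past the fold (Cxcl10 and Ccl12) and 1 lower (Ccl5). Over all genes 1.40% were higher and 3.14% lower. Ccl12 was at 1121 CPM (983 to 1274) against 406 CPM (371 to 444). It was found in 25 members and higher in members of all 4 numbers. Without the member that held 78 of its 236 UMIs, its log2 ratio was 0.91 instead of 1.44.

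Il1a was more frequent in microglia, with or without the chemokines, than in macrophages. The 17 macrophages with 2 or more chemokine UMIs held 1 UMI of Il1a and the other 91 held 0, whereas 19 of the 50 members held 54 UMIs. Of the 360 compared microglia, 69 held 99 UMIs of it. The same 17 macrophages were at 330 CPM of Il1b and 801 CPM of Ccl2, a monocyte attractant, of which the 50 members held 12 UMIs in 5 cells. Their early response genes summed to 11227 CPM against 3028 CPM in the 91 macrophages without the chemokines.

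Of 23 NF-kB members and targets, 10 were compared, 2 were past the fold and 0 were lower, with a median of 0.37. Nfkbia, the inhibitor that NF-kB itself induces, was at 803 CPM (687 to 934) against 311 CPM (281 to 345), and Cd83, a surface protein of activated antigen-presenting cells, at 347 CPM (272 to 436) against 143 CPM (122 to 166). Cd83 was higher in members of all 4 numbers and Nfkbia in those of 3. Plek, a substrate of protein kinase C, had a log2 ratio of 0.67. Among receptors, C3ar1 (the receptor of complement fragment C3a) had a log2 ratio of 1.18 and Tlr2, a receptor of bacterial lipoproteins, one of 1.09, each higher in members of 3 numbers.

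**Figure D2:**
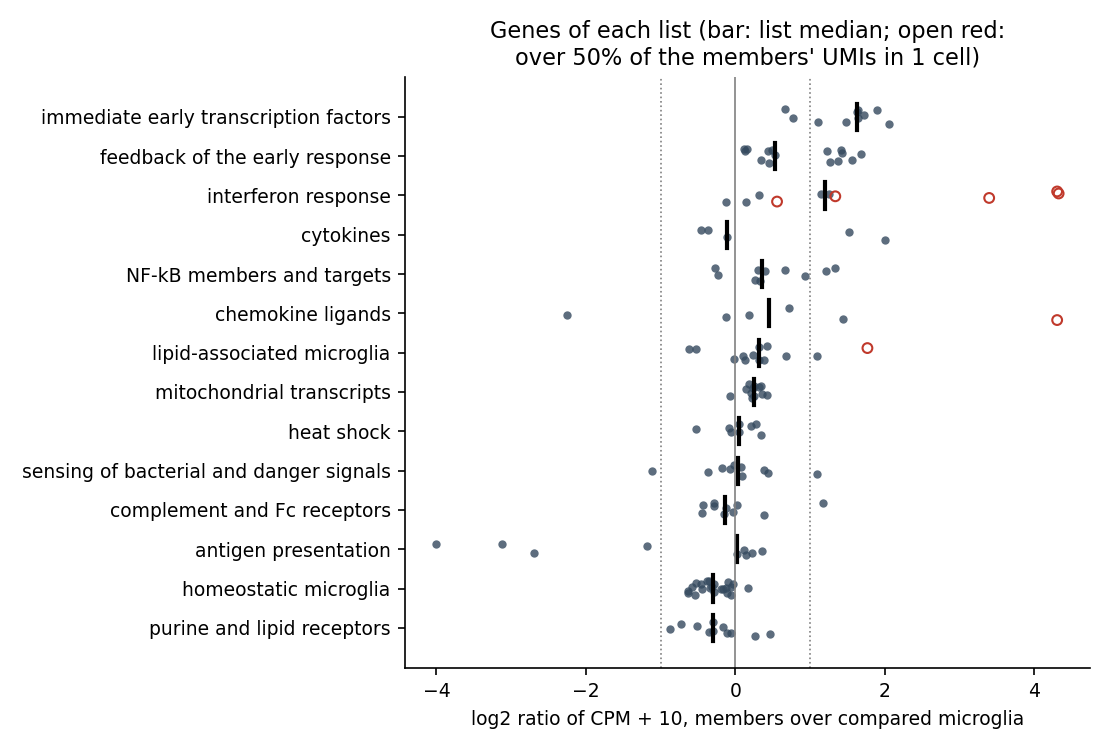
Log2 ratio of CPM plus 10 in members over compared microglia for each compared gene (points) of 14 lists, with the list median as a black bar, dotted lines at -1 and 1, and open red circles for genes with over 50% of the members' UMIs in 1 cell. The early response factors lie between 0.66 and 2.06, the homeostatic genes almost all below 0, and the highest interferon genes are open circles.

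The genes of resting microglia ran slightly lower. Of 24 homeostatic genes 22 were compared, 0 were past the fold in either direction and 1 (Sparc, a matrix-associated protein, 0.17) was above 0, with a median log2 ratio of -0.30 beside -0.10 for all genes. Selplg was at 1882 CPM (1701 to 2076) against 2915 CPM (2819 to 3014) and lower in all 4 numbers. Tmem119, a microglial surface protein named here after its values were seen, was at 974 CPM (845 to 1117) against 1411 CPM (1344 to 1480), also lower in all 4. Hpgd, an enzyme of prostaglandin breakdown from the list of purine and lipid genes, had a log2 ratio of -0.72. Csf1r (-0.17) and Cst3, which encodes the protease inhibitor cystatin C (-0.06), stood near the median of all genes. The rule gene P2ry12 stood at 1535 against 2311 CPM, which is given as a description.

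The other lists held few genes past the fold. Heat shock genes had a median of 0.05 with 0 of 8 past the fold, complement and Fc receptors -0.14 with 1 of 10 higher, and mitochondrial transcripts 0.25 with 0 of 12. Purine and lipid receptors had a median of -0.30 with 0 of 11, and genes of hormone and nutrient responses -0.02 with 0 of 7. Of 13 lipid-associated genes compared, 10 lay above 0 and 2 were higher past the fold, with a median of 0.32. These 2 were Lgals3 (1.77) and Fabp5 (1.10). With the member holding most UMIs of the gene left out, their log2 ratios were 0.72 and 0.63. Apoe, a lipid carrier, was at 29713 against 21982 CPM, and the phagocytic receptor Trem2 at 2471 against 2490 CPM.

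Early response transcripts were far from even among the members. In single cells the list took from 0 to 51986 CPM, with a median of 4816 in members and 1103 in compared microglia (0 to 43443), and 37 of the 50 members lay above the median of the compared cells. Summed over cells it was at 9746 CPM in members with 2 to 4 chemokine UMIs and 10604 CPM in those with 5 or more. Members with exactly 2 UMIs stood at 5037 CPM, compared cells with 1 UMI at 3643 CPM and those with 0 at 3517 CPM. The members with exactly 2 UMIs are also part of the band of 2 to 4. Among them 1 cell held 95 early response UMIs and another 65, and every other one held 20 or fewer. The sum at the threshold thus leans on these cells, and no graded order of the bands can be read from it.

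**Figure D3:**
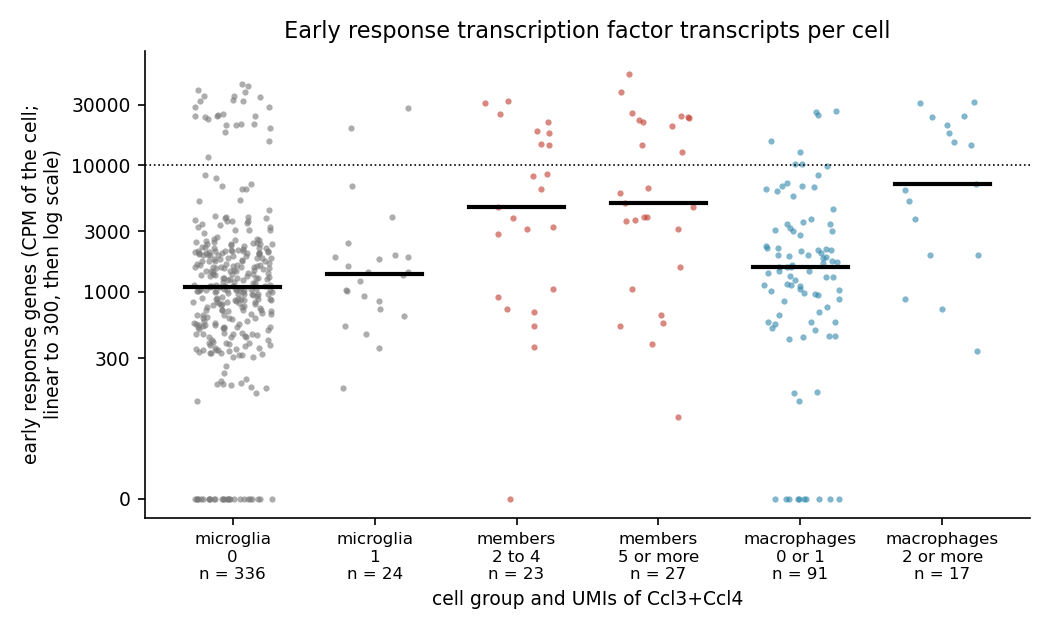
Early response transcription factor CPM of each cell (y axis, linear to 300 and logarithmic above), for microglia and macrophages grouped by their UMIs of Ccl3 and Ccl4; points are cells, bars are medians and the dotted line is 1% of UMIs. Most cells form a broad band below the line, a smaller set lies above it in every group, and the set above is 19 of 50 members but 29 of 360 compared microglia.

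A level of 1% of UMIs, chosen after the values were seen, was used to describe the cells with the highest early response. At or above it were 19 of 50 members (38.0%, 24.7 to 52.8%) and 29 of 360 compared microglia (8.06%, 5.46 to 11.4%), and 9 members and 10 compared cells lay between 0.5 and 1.5% of UMIs. By barcode number these were 7 of 14, 10 of 24, 1 of 7 and 1 of 5 members for numbers 1 to 4, against 12 of 111, 12 of 119, 1 of 56 and 4 of 74 compared cells. Of the 8 members with over 20 chemokine UMIs, 6 were above the level. Seen from the other side, 39.6% of the 48 microglia above the level were members (25.8 to 54.7%), and 8.56% of the 362 below it (5.89 to 11.9%). Most microglia with a high early response therefore held 0 or 1 chemokine UMI, and most members had no high early response.

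Both groups above the level were chosen for a high early response, so its sums, 23155 CPM in the 19 members and 26958 CPM in the 29 compared cells, describe that choice. Among genes outside that sum, Btg2 was at 2449 CPM in the members and 2311 CPM in the compared cells, and Nfkbia at 1738 and 1753 CPM. Il1a was at 431 CPM (299 to 603) against 279 CPM (185 to 403), and Tnf at 14 UMIs against 4. C3ar1 was at 241 CPM (145 to 376) against 110 CPM (54.7 to 196), Cd83 at 254 CPM against 120 CPM (20 and 12 UMIs) and Tlr2 at 88.8 CPM (35.7 to 183) against 59.8 CPM (21.9 to 130), all with overlapping intervals. Tmem119 was at 1155 against 1116 CPM.

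Below the level, C3ar1, Cd83 and Tlr2 were also higher in members, there with intervals that did not overlap. Nfkbia was at 243 CPM in the 31 members and 179 CPM in the 331 compared cells, and Btg2 at 273 and 239 CPM. Il1a was at 152 CPM (92.8 to 235) against 65.1 CPM (50.8 to 82.1), although 12 of its 20 UMIs lay in 1 member. C3ar1 was at 517 CPM (401 to 655) against 182 CPM (158 to 210), Cd83 at 403 CPM (302 to 527) against 145 CPM (123 to 169) and Tlr2 at 258 CPM (179 to 361) against 88.9 CPM (72.1 to 108). Of the 68 C3ar1 UMIs of these members, 19 lay in 1 cell. These levels are at full depth, and over all members Tlr2 was not higher after thinning (log2 ratio -0.14). Tmem119 was at 866 CPM against 1438 CPM and Selplg at 1785 CPM against 2970 CPM. Without the cells above the level the median of the early response list was 0.67, and Junb had a log2 ratio of 1.21.

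**Figure D4:**
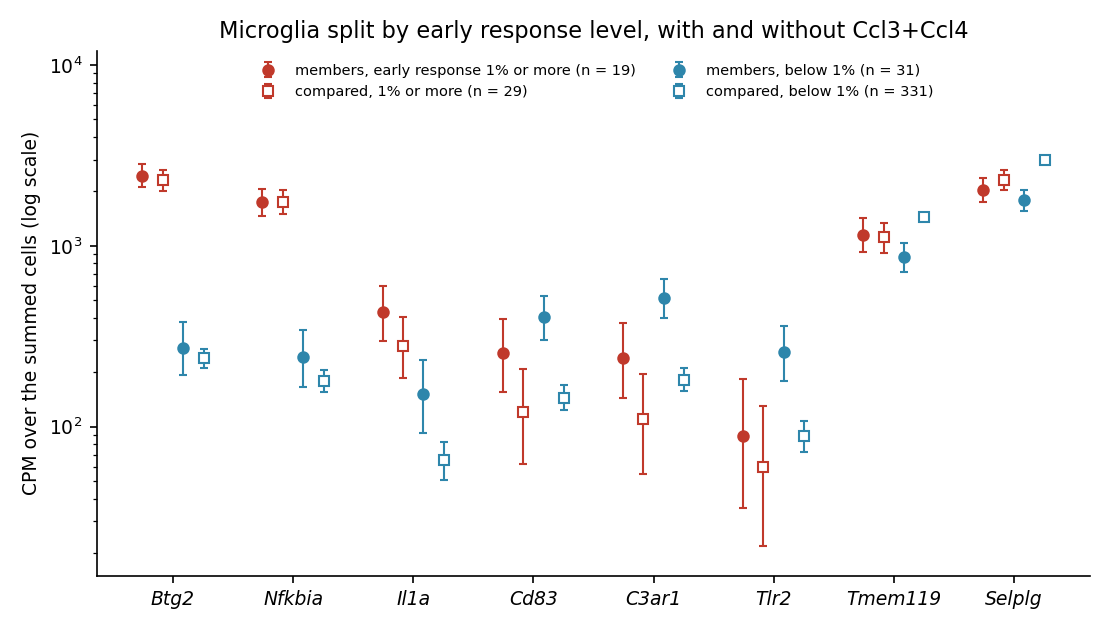
CPM with exact 95% Poisson intervals (y axis, log scale) of 8 genes in microglia summed into 4 groups: members (filled circles) and compared cells (open squares), with the early response at 1% of UMIs or more (red) or below (blue). Btg2 and Nfkbia follow the early response level, while Cd83, C3ar1 and Tlr2 are highest in members below the level, and Tmem119 and Selplg highest in compared cells below it.

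Transcripts of the early response list were also found outside the microglia. The list stood at 5932 CPM in VLMCs, 5545 CPM in endothelial cells and 4532 CPM in macrophages, between the 3528 CPM of compared microglia and the 10259 CPM of members, and at 550 CPM in astrocytes and 1160 CPM in tanycytes. The endothelial sum came with less Fos, Jun and Junb, at 305, 416 and 389 CPM against 448, 687 and 834 CPM in compared microglia. Endothelial Egr1 was at 5.55 against 65.5 CPM, and Ier2 at 300 against 292 CPM. In VLMCs the list was at 2452, 3502, 6420 and 12550 CPM for numbers 1 to 4, an order unlike that of the members (11970, 11807, 4349 and 6277 CPM).

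Several of the largest ratios were carried by single cells. Of the 54 higher genes, 14 had over 50% of the members' UMIs in 1 cell. With the member holding the most UMIs of a gene left out of the sum of that gene, 20 remained past the fold. This step favours lower ratios by construction, and it lowered the log2 ratio of each of the 54 genes. Among the genes that remained were Egr1 (1.90), Il1b (1.76), Fos (1.60), Junb (1.55), Jun (1.55), Atf3 (1.48) and Il1a (1.20). The 8 early response genes past the fold had log2 ratios of 1.00 (Ier5) to 1.90 (Egr1) after this step.

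The interferon genes were the clearest case. Of 10 compared genes, 6 were past the fold, with a list median of 1.21, but 177 of the 189 UMIs of Cxcl10, Rsad2, Ifit3 and Isg15 in members lay in 1 cell of barcode number 3. That cell held 48 UMIs of Ccl4, 0 of Ccl3 and 78 of Ccl12, another chemokine gene, together with 63 of Cxcl10, an attractant of T cells, and 1 early response UMI. The list summed to 10924 CPM in members of number 3 and to 639, 970 and 724 CPM in those of numbers 1, 2 and 4, against 645 to 1210 CPM in the compared cells. Without that cell the log2 ratio of Cxcl10 was -0.09 and that of Ifit3, an interferon-induced antiviral gene, 0.13.

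Hmox1, the haem-degrading oxygenase, had 143 of its 155 UMIs in 1 member of 10732 UMIs from barcode number 1. Its log2 ratio without that cell was 0.18. The same cell held 843 of the 2126 UMIs of Ftl1, a ferritin subunit gene whose processed copies may share reads, and 13 of the 22 of Lgals3, a lectin. It held 5 chemokine UMIs, 73 UMIs of C1qc and 0 of P2ry12.

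Another pair of cells carried transcripts of other cell types. A member of number 4 held 154 of the 191 UMIs of 6330403K07Rik with 13 UMIs of tanycyte markers, and a member of number 2 held 62 of the 95 UMIs of Avp, the vasopressin gene, and 18 of the 23 of Dcn, with 31 UMIs of VLMC markers. Without the 4 cells that each led 2 or more genes, 29 genes (0.768% of those compared) were higher past the fold instead of 54, and the early response median was 1.80.

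**Figure D5:**
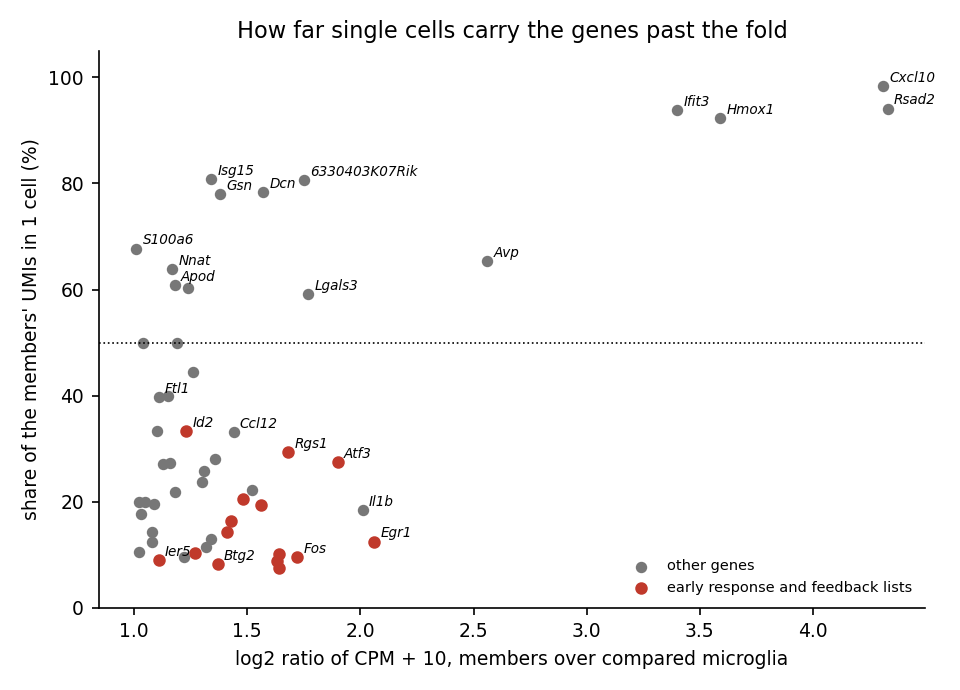
For the 54 genes higher past the fold, the log2 ratio of CPM plus 10 in members over compared microglia (x axis) against the share of the members' UMIs held by the 1 cell with the most (y axis, %), with a dotted line at 50% and early response and feedback genes in red. The 4 genes with log2 ratios above 3 have 92.3% to 98.4% of their UMIs in 1 cell, and the red genes lie at or below 33.3%.

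The lower genes that stood out were those of antigen presentation to T cells. H2-Aa, H2-Ab1 and H2-Eb1, the chains of MHC class II, had log2 ratios of -3.12, -2.70 and -4.00, and Cd74, their invariant chain, -1.18. Members held 11 UMIs of the 3 chains and 0 of H2-Eb1, which was at least 10.5-fold lower against a floor of 3 UMIs over the group. In the compared microglia 751 of the 790 class II UMIs (95.1%) lay in 10 cells, so the difference concerns a few cells without the chemokines. Cells with 2 or more class II UMIs were 3 of 50 members and 11 of 360 compared cells. Those with 5 or more were 0 members and 8 compared cells, so the ratios do not show fewer such cells among members. The chemokine gene Ccl5 was at 4 UMIs in 3 of 50 members and 153 UMIs in 15 of 360 compared cells. Both Ccl5 and class II transcripts were counted in 1 compared cell. The other 6 of the 10 lowest genes (Pmm2, Exosc7, Vwa5a, Tmem60, Acsl3 and Dpy19l4) had 0 to 2 UMIs in members and 53 to 82 in the compared cells. The class I genes H2-K1, H2-D1 and B2m had log2 ratios of 0.36, 0.23 and 0.15.

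Over the whole transcriptome the members lay among the other microglia. With all cells thinned to 1000 UMIs, the rule genes left out and 20 principal components of the 2000 most variable genes, 24.9% of the 15 nearest neighbours of a member were members, beside 12.2% of all microglia and 13.3% around compared cells. The share was 19.7% at full depth, 22.1% with 10 components and 22.9% without the early response and feedback genes, where the neighbours of compared cells were members in 16.7%. The value moved with small technical choices, and 41 genes tied in dispersion for the last 6 of the 2000 places at this depth. It was 24.3% with the tied genes taken from the end of the file, 23.3% with an exact decomposition and 18.7% with a smaller offset in the dispersion, where the share around compared cells was 11.2%. In each of these settings the share around members was above 12.2%, and most of the neighbours of a member were compared cells.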

How the data were processed

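Median eminence cells were measured by 10x Genomics 3' single-cell RNA-seq. The deposited file is 1 matrix of raw UMI counts per gene and cell, which the authors made with Cell Ranger 2.0 (per the labels) on the mouse mm10 build, with filtered cells of all libraries side by side. Here 27645 of 27998 gene IDs were given symbols from GENCODE vM21. The matrix held 5982 cells, and members were read with 2269 to 10732 UMIs per cell and compared cells with 1563 to 11310. UMIs were summed over cells and scaled to CPM with a pseudocount of 10 CPM. A gene entered with 50 or more UMIs, and the text names the 15 highest and 10 lowest ratios where they bear on a result, the genes of each list past the fold or with most UMIs, and the chosen markers. Tnf, Ccl2, Tmem119 and Sparc were chosen after their values were seen. Doublets were kept, with Scrublet (scanpy 1.11.5) as an alternative. The comparison was tried on simulated cells drawn from the summed profile of compared microglia, with known changes placed in genes of many UMIs. Those cells varied by counting error only, so this trial does not cover genes carried by single cells. The members and gene lists were chosen with earlier results of these data known. The barcode numbers are not tied to the labels, so no test was run. Alternatives covered the thresholds, depth, scaling, doublets, cells with other markers and single barcode numbers.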

Additional observations from a re-analysis of the deposited data

How the results depend on the processing

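The share of microglia with the chemokines, 12.2%, was 8.78% with at least 3 UMIs asked for, 6.59% with 5, 2.44% with 10 and 6.10% after thinning to 1000 UMIs. The genes compared ran from 1248 to 6781 over the settings, so each count has its share of them beside it. The count of higher genes, 54 (1.40%), was 171 (4.89%) with at least 10 chemokine UMIs and 110 (1.62%) with genes of 20 UMIs. It was 33 (0.855%) with a pseudocount of 50 CPM and 32 (1.52%) with genes of 100 UMIs. It was 30 (1.66%) without cells holding markers of other types and 22 (1.76%) in the same cells thinned. The count of lower genes, 121 (3.14%), was 578 (16.5%) with at least 10 chemokine UMIs and 258 (7.02%) with 5. It was 349 (5.15%) with genes of 20 UMIs and 212 (5.50%) with a pseudocount of 1 CPM. It was 47 (2.23%) with genes of 100 UMIs and 11 (0.285%) with a pseudocount of 50 CPM. The early response median, 1.64, was 2.41 with at least 10 chemokine UMIs and 2.01 when cells were thinned before selection. Fewer cells or genes enter in most of these settings by construction. Some settings were added after the data were seen. Leaving out for each gene its leading member gave 20 higher (0.518%) and 275 lower genes (7.13%). Leaving out the 4 members that led 2 or more genes gave 29 higher genes (0.768%). Leaving out cells with the early response at 1% of UMIs or more gave a median of 0.67 and 211 lower genes (6.07%). Leaving out each barcode number in turn gave shares of 9.74 to 13.6% and a median of 1.54 to 1.62. It gave 39 to 53 higher genes (1.16 to 1.91%) and 110 to 166 lower genes (3.28 to 5.98%). The share of a member's neighbours that were members, 24.9%, lay between 18.7% and 25.3% over the settings, 3 of which (the order of tied genes, the dispersion offset and the decomposition) were added after the data were seen. In every setting run the early response median stayed above 0. Scrublet called 2 of 50 members and 5 of 360 compared cells doublets, and without them 43 genes (1.16%) were higher. Counts of 2 UMIs at about 3781 UMIs per cell limit the rule, since shallower cells miss members. No paired analysis was possible because the labels tie no replicate number to the barcode numbers and the results come from no test.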
